A study of Bos taurus with 6 samples.

Results

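The thermogenic and beige fat genes described here are UCP1, UCP2, UCP3, CIDEA, PRDM16, EBF2, TBX1, DIO2 and COX7A1, which were taken by gene symbol from the mRNA count table. All 9 genes are among the 25444 genes of the table, all 9 had at least 1 count, and 7 of them had more than 3 counts in a library. Intramuscular fat (IMF) was dissected from the sternomandibularis, a neck muscle, of male Chinese Qinchuan cattle aged 24 months, which had been weaned at 3 months and fed the same diet. Steers had been castrated at 6 months, whereas bulls stayed intact. RNA was pooled within each group before library construction, over 6 animals according to the series design and 3 according to the sample labels, so that each group is 1 mRNA library without replicates. A difference between them is therefore a difference between 2 pooled libraries and carries no estimate of the spread between animals.

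Brown fat and the beige cells that appear within white fat burn fatty acids to make heat. UCP1, in the inner mitochondrial membrane, lets protons return to the matrix without making ATP, and it is the protein that defines these cells. Noradrenaline acting through beta-adrenergic receptors and thyroid hormone made active by DIO2 switch the programme on, with EBF2, PRDM16 and the coactivator PPARGC1A acting at its genes. UCP2, UCP3, CIDEA and COX7A1 are often counted with this programme, although each is also made elsewhere. UCP2 is found widely, in immune cells among others, UCP3 in skeletal muscle, COX7A1 in heart and skeletal muscle, and CIDEA on lipid droplets of fat-storing cells. In cattle, brown fat is best known from the newborn calf.

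The counts summed to 12677375 in steers and 9868415 in bulls. They were divided by median-of-ratios size factors of 1.04 and 0.959, and all log2 ratios given are steers over bulls on this scale. Each ratio has a 95% Clopper-Pearson interval that covers counting error only. A gene was called when an exact binomial test (two-sided) of its 2 counts gave a Benjamini-Hochberg adjusted p under 0.05 and the absolute log2 ratio was over 1. Of the 17752 genes tested, 776 were called higher in steers (4.37%) and 1444 lower (8.13%), which together make 12.5%. With scaling by total counts the median log2 ratio of genes with more than 3 counts moved from 0.01 to -0.22, and the share of calls that were higher in steers moved from 34.96% to 21.2%.

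Among the 9 thermogenic genes, CIDEA was called higher in steers and UCP2 and PRDM16 were called lower. CIDEA was 6.74-fold higher in steers (95% interval 5.63 to 8.13), UCP2 4.71-fold higher in bulls (4.23 to 5.26) and PRDM16 3.68-fold higher in bulls (1.95 to 7.45). UCP1 and DIO2, the defining uncoupler and the enzyme that activates thyroid hormone, were close to absent from both pools. COX7A1 differed little, and UCP3, EBF2 and TBX1 were not called. In bulk tissue, fewer cells of a type and less RNA per cell cannot be told apart. The 7 genes with more than 3 counts had a median log2 ratio of -0.04 beside 0.01 over the 15523 such genes of the table. The adjusted p of the exact binomial test was 3.24e-145 for CIDEA, 6.69e-223 for UCP2 and 6.0e-05 for PRDM16, and it was 0.957 for COX7A1, 0.0543 for EBF2 and 0.515 for TBX1. These values compare the reads of 2 libraries, and with a biological coefficient of variation of 0.4 assumed between pools in edgeR none of CIDEA, UCP2 and PRDM16 was called (adjusted p 0.144, 0.364 and 0.870).

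**Figure D1:**
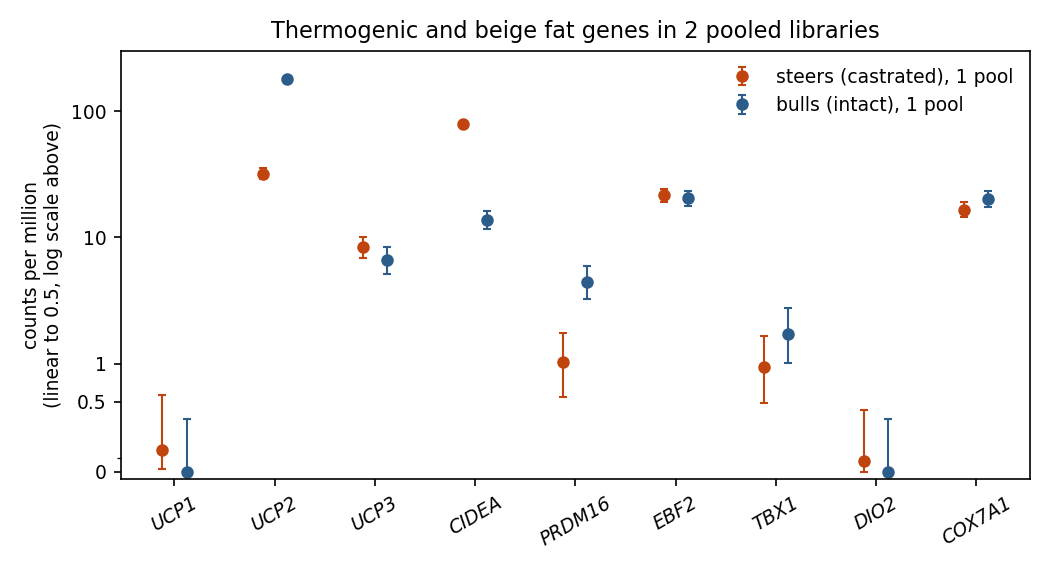
Counts scaled to the library total (CPM) of the 9 genes in the pooled library of steers (orange) and of bulls (blue), on an axis that is linear to 0.5 and logarithmic above, with bars for exact 95% Poisson intervals that cover counting error only. CIDEA lies higher in steers (78.7 against 13.8), UCP2 (31.9 against 178) and PRDM16 (1.03 against 4.46) lie lower, and UCP1 and DIO2 lie at or near 0 in both.

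UCP1 had 2 counts in the steer pool and 0 in the bull pool. The 2 counts of steers are 0.158 CPM, the count scaled to the library total, with an exact Poisson interval of 0.0191 to 0.570, and the 0 counts of bulls allow up to 0.304 CPM when 3 counts are taken as the limit, or up to 0.374 CPM by the exact Poisson interval. UCP1 was thus barely detected in steers and not detectable at this depth in bulls, and no fold can be given.

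UCP2 transports metabolites and protons across the inner mitochondrial membrane and is not an established source of heat. The gene lies on chromosome 15 of the authors' bovine genome build (52891857 to 52898320, minus strand). It had 405 counts in the steer pool and 1754 in the bull pool, a log2 ratio of -2.24 (interval -2.40 to -2.08). This was the largest fall among the thermogenic genes, and the intervals of the 2 libraries in CPM, 28.9 to 35.2 and 170 to 186, lie far apart.

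UCP3, the form of skeletal muscle, had 106 counts in the steer pool and 65 in the bull pool. Its log2 ratio of 0.58 (interval 0.12 to 1.05) passed the exact binomial test at an adjusted p of 0.0325 but not the fold threshold, so it was not called. The adjusted p of the same exact test was 0.268 with scaling by total counts, 0.133 with totals without the 10 top genes and 0.0851 with scaling by the adipocyte markers. UCP2 took 78.9% of the counts of UCP1, UCP2 and UCP3 in steers (exact binomial interval 75.2 to 82.4) and 96.4% in bulls (95.5 to 97.2), and UCP3 took 20.7% and 3.57%. These shares need no scaling between libraries, although they are not corrected for gene length. In a RefSeq annotation of a newer cattle assembly (ARS-UCD2.0), UCP3 is the next protein-coding gene of the count table after UCP2, so neighbouring genes of the same family had log2 ratios of opposite sign. Of the genes on either side of the pair, DNAJB13 had 1 and 0 counts and C2CD3 a log2 ratio of -0.24 (interval -0.51 to 0.03).

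The more distant uncoupling-like carriers were not called. SLC25A27, also known as UCP4, had 45 and 29 counts, SLC25A14, or UCP5, had 22 and 14, and SLC25A30 had 285 and 224. Their log2 ratios ran from 0.23 to 0.53, and all 3 intervals include 0. UCP2 was thus the only uncoupling protein or listed relative that was called.

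CIDEA coats lipid droplets and promotes the fusion that makes them larger. It is a classical marker of brown fat in mice and is also made by lipid-storing white adipocytes in other species. The gene lies on chromosome 24 of the authors' build (43976485 to 43989747, plus strand) and had 998 counts in the steer pool against 136 in the bull pool, a log2 ratio of 2.75 (interval 2.49 to 3.02). This was the largest difference among the 9 genes in either direction.

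The other CIDE genes, CIDEB and CIDEC, share the droplet function, with CIDEC the major form of white fat and CIDEB that of liver. CIDEC had 9931 counts in the steer pool and 7501 in the bull pool, a log2 ratio of 0.28 (interval 0.24 to 0.33), and CIDEB had 168 and 123 counts and a ratio of 0.33 (-0.02 to 0.68). Neither was called. CIDEA made up 8.99% of the CIDE counts in steers (8.47 to 9.54) and 1.75% in bulls (1.47 to 2.07), and the intervals do not overlap. Its chromosomal neighbours in RefSeq order, MPPE1, IMPA2, TUBB6 and AFG3L2, had log2 ratios between -0.88 and 0.35 and none was called.

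**Figure D2:**
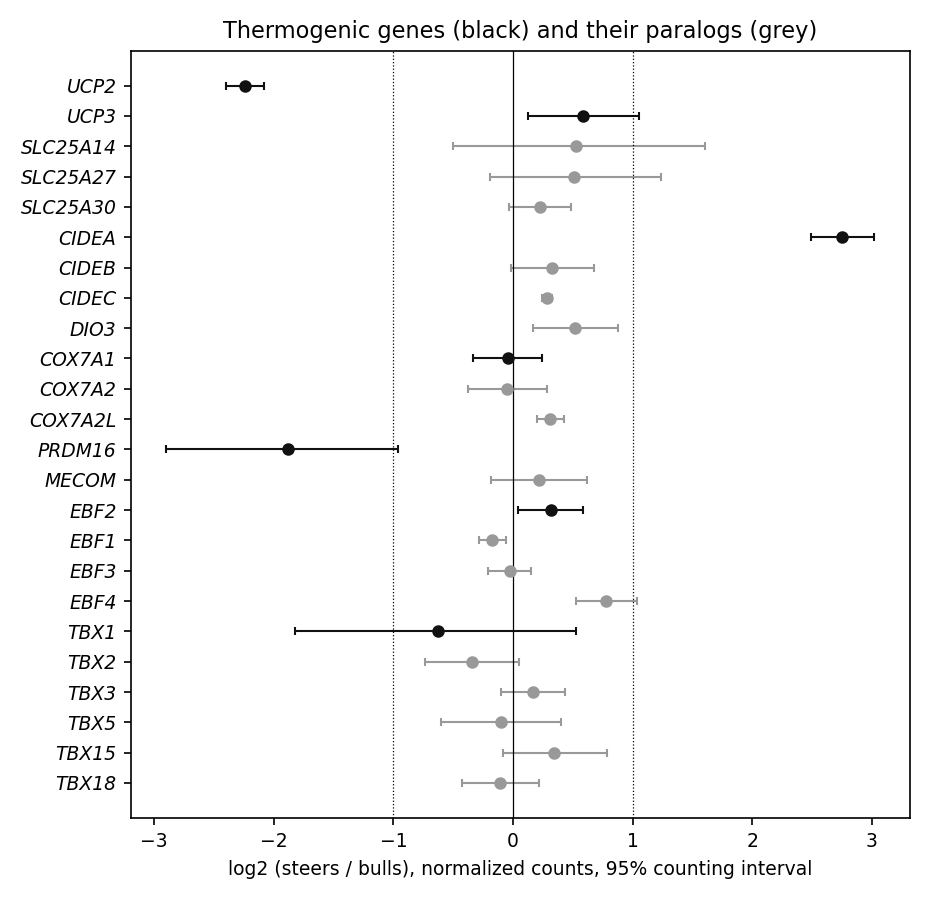
Log2 ratios of steers over bulls with 95% counting intervals for the thermogenic genes with more than 3 counts (black) and for their paralogs (grey), dotted lines marking a log2 ratio of 1 in either direction. UCP2, CIDEA and PRDM16 lie beyond the dotted lines, while all paralogs drawn lie between -0.34 and 0.78.

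The transcription factors of the list split. PRDM16 is a zinc finger protein that steers precursors towards brown rather than muscle or white fat identity and lies on chromosome 16 of the authors' build (46882429 to 47119406, minus strand). It had 13 counts in the steer pool and 44 in the bull pool, a log2 ratio of -1.88 (interval -2.90 to -0.96). With so few counts the interval is wide, and its upper end lies just short of the fold threshold. MECOM, its closest relative, had 120 and 95 counts and a log2 ratio of 0.21 (-0.19 to 0.62). PRDM16 made up 9.77% of the counts of these genes in steers (5.31 to 16.1) and 31.7% in bulls (24.0 to 40.1).

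EBF2 marks brown and beige precursors and opens chromatin at thermogenic genes. It had 272 counts in the steer pool and 201 in the bull pool, a log2 ratio of 0.31 (interval 0.05 to 0.58) that moved to 0.08 with scaling by total counts. Of the other EBF genes, EBF1 had 1243 and 1286 counts, EBF3 531 and 497, and EBF4 366 and 196. EBF4 had the highest log2 ratio of the paralogs (0.78, interval 0.52 to 1.04), and none of the EBF genes was called. EBF2 took 11.3% of the EBF counts in steers (10.0 to 12.6) and 9.22% in bulls (8.04 to 10.5).

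TBX1, a T-box factor used as a marker of beige cells in mice and known for the development of head and neck muscle, had 12 counts in the steer pool and 17 in the bull pool. Its log2 ratio of -0.62 had an interval of -1.82 to 0.53, so a change of more than 2-fold downwards could not be told from none at this depth. TBX15, TBX18, TBX2, TBX3 and TBX5, which pattern limbs, heart and other tissues, had between 69 and 254 counts in each library. Their log2 ratios lay between -0.34 and 0.35 and none was called.

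DIO2 turns the prohormone thyroxine into active thyroid hormone inside brown fat cells. It had 1 count in steers, or 0.0789 CPM (interval 0.00200 to 0.439), and 0 in bulls. DIO1, the deiodinase of liver and kidney, had 2 and 0 counts. DIO3 inactivates the hormone, and here it was the only deiodinase with more than 3 counts, 170 for steers against 109 for bulls and a log2 ratio of 0.52 (interval 0.16 to 0.88) that was not called. An antisense transcript overlaps DIO3 in mammals, and the use of strand in counting is not given in the sources used here, so its reads could include both.

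COX7A1 is the heart and muscle form of a subunit of cytochrome c oxidase and rises in brown fat cells as they mature. It had 210 counts in the steer pool and 199 in the bull pool, a log2 ratio of -0.04 (interval -0.33 to 0.24), and scaling by total counts moved the ratio to -0.28. COX7A2, the form of most other tissues, had 158 and 150 counts and a ratio of -0.05 (-0.38 to 0.28). COX7A1 thus made up 57.1% of the counts of both forms in steers (51.8 to 62.2) and 57.0% in bulls (51.6 to 62.3). COX7A2L, which acts in the assembly of respiratory supercomplexes, had 1492 and 1103 counts and a log2 ratio of 0.31 (0.20 to 0.43).

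**Figure D3:**
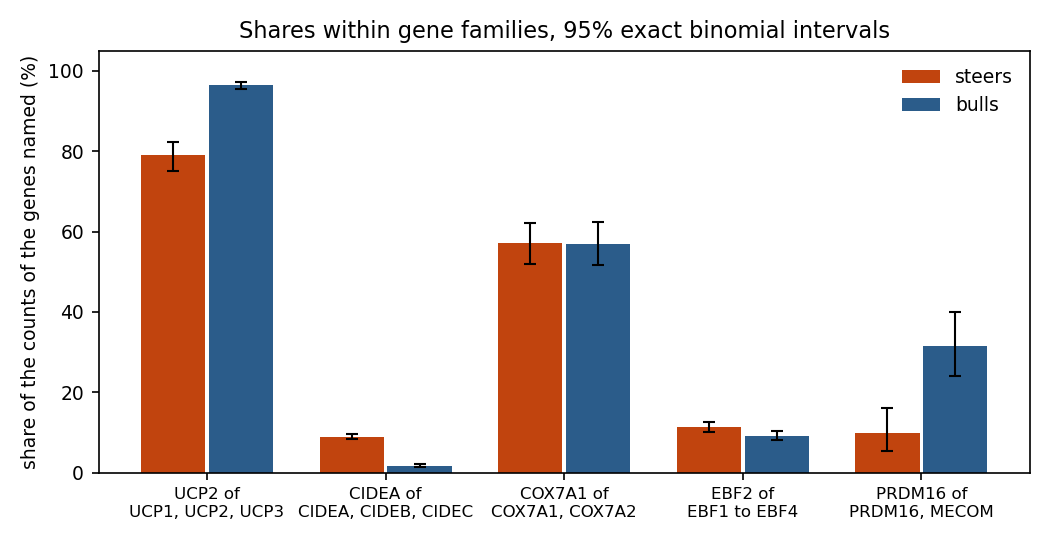
Share of the counts of a gene family taken by 1 of its genes, in percent, for the pooled library of steers (orange) and of bulls (blue), with exact 95% binomial intervals. The bars of UCP2, CIDEA and PRDM16 differ between the libraries, those of COX7A1 are level at 57.1% and 57.0%, and those of EBF2 have overlapping intervals.

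The gene lists around these members were written from general knowledge, with earlier results of these data known, and are described by counts beside the 4.37% of all genes called higher and the 8.13% called lower. Scaling by total counts lowered every gene alike and moved the median of all genes from 0.01 to -0.22. List medians given with total counts are to be read beside that -0.22. Of 28 transcription partners of the thermogenic programme, 26 were in the table, 0 were called higher and 3 lower. IRF4, which binds PPARGC1A in brown fat but is also a factor of lymphocytes, had 10 counts in the steer pool and 149 in the bull pool (log2 ratio -4.02, interval -5.11 to -3.10). KLF11, a partner of PPARG at brown fat genes, had 286 and 886 counts (-1.75, interval -1.95 to -1.56), and NFIA, which acts with PPARG at brown fat enhancers, had 196 and 367 (-1.03, -1.28 to -0.77). CEBPD and CTBP1, which had the most counts of the list, were at -0.57 and 0.20. PPARGC1A, named after its values were seen for its place in the programme, had 35 and 45 counts and a ratio of -0.48 (-1.17 to 0.18). NFIA lay close to the fold threshold, and its interval includes a log2 ratio of -1. With scaling by total counts 4 genes of the list were called lower. With edgeR, 2 were at an assumed coefficient of variation of 0.2 and 1 at 0.4. The median log2 ratio of the list was -0.16.

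The repressors of the programme gave 0 genes called higher and 1 lower of 18 with counts, and a median of -0.15. The gene called was RBL1, which encodes the pocket protein p107 of the cell cycle and restrains brown adipocyte formation, with 15 and 59 counts and a log2 ratio of -2.10 (interval -3.02 to -1.26). FOXO1 and NCOR1, with the most counts, were at 0.62 and -0.28 and were not called.

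Among 29 hormone and neural inputs, 27 were in the table and 23 had a count, of which 1 was called higher and 1 lower. BMP7, a signal that commits precursors to brown fat, had 244 counts in the steer pool and 108 in the bull pool, a log2 ratio of 1.05 (interval 0.72 to 1.39), which was not called with scaling by total counts, by totals without the 10 top genes or by the adipocyte markers. ADRB1, a beta-adrenergic receptor, had 1 and 11 counts and a ratio of -3.58 with a wide interval of -9.01 to -0.80. With edgeR at an assumed coefficient of variation of 0.2, 0 genes of the list were called in either direction. ADRB3, the beta-adrenergic receptor best known from rodent brown fat and named after its values were seen, had 0 and 2 counts, and FGFR1 and NPR1, with the most counts, were at 0.34 and 0.02. FGF21, BMP8B, NRG4 and GPR3 had 0 counts in both pools. The median of the list was 0.08, and -0.16 with total counts.

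The other brown and beige adipocyte markers were counted in the same way. Of 27 in the table, ELOVL3, SLC27A2, TNFRSF9 and OTOP1 had 0 counts in both libraries, and 6 more had at most 3 counts in each. Of the 17 with more, 4 had a log2 ratio above 0 and 13 one below 0, with a median of -0.41. The intervals of KCNK3, LETMD1, GK, FGF9 and NTRK3 below 0, and of EVA1B and ACOT2 above 0, include 0. Over all genes with more than 3 counts, 51.1% had a log2 ratio above 0. A lean to lower values was not particular to these markers. Of 25 transcription partners 16 lay below 0, and of 20 skeletal muscle markers 13, whereas 20 of 24 mitochondrial respiratory genes lay above 0. With scaling by total counts the median of the list became -0.65. The 3 genes called lower were EPSTI1, EVA1A and PDK4, and 0 were called higher. Of the 23 genes with a count 13.0% were thus called in either direction, beside 12.5% of all genes tested. With scaling by total counts 5 were called lower, and with edgeR at an assumed coefficient of variation of 0.2 only 1 was. PDK4 restrains the oxidation of pyruvate in mitochondria during fasting and is abundant in muscle as well as fat. It had 2495 counts in the steer pool and 6424 in the bull pool and a ratio of -1.49 (interval -1.55 to -1.42). EPSTI1, which interferon also induces, had 39 and 96 counts (-1.42, -1.998 to -0.87), and EVA1A had 1 and 13 (-3.82, -9.23 to -1.09). S100B, with 1791 and 1292 counts, was at 0.35.

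The white adipocyte markers had 3 genes called higher and 2 lower of 17, with a median of 0.02. LPL and MEST rose by log2 ratios of 1.67 and 1.28, INHBB by 2.20 from few counts (30 and 6), and SNCG fell by 1.44. The remaining call was RETN, with 0 and 8 counts, too few to be tested once 10 counts were required. At an assumed coefficient of variation of 0.2 in edgeR, 1 gene of the list was called lower. RBP4, the most abundant, was at 0.36. With scaling by total counts the median became -0.22.

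**Figure D4:**
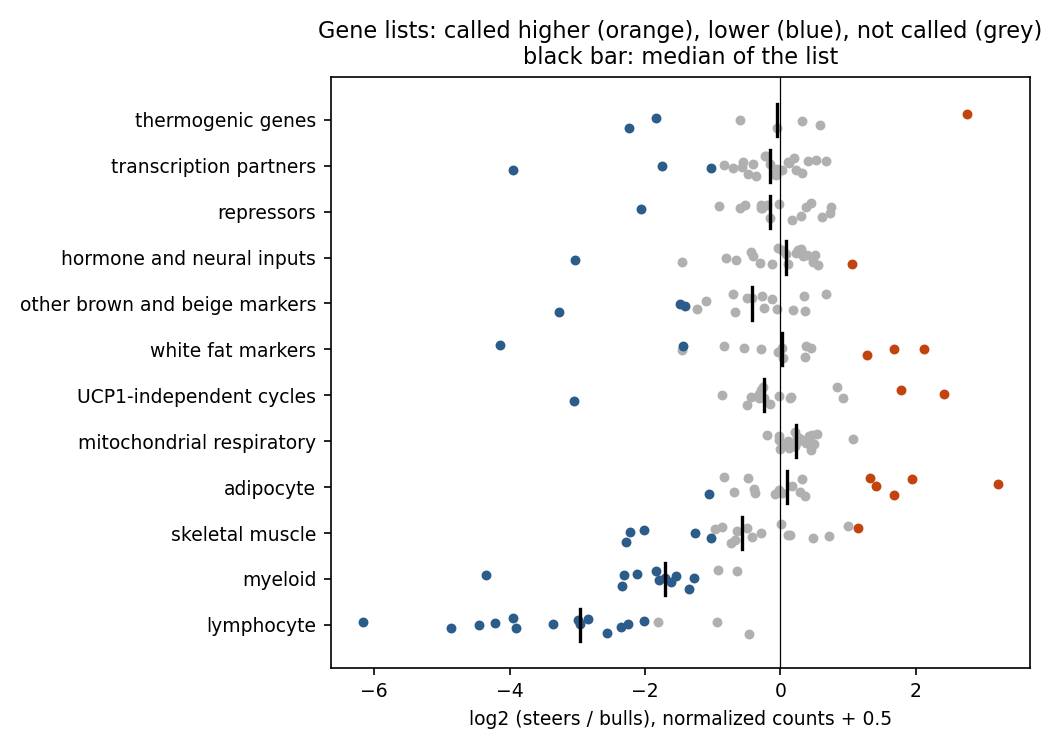
Log2 ratios of steers over bulls, with 0.5 added to normalized counts, for each gene with more than 3 counts in a library, by list, with genes called higher in steers in orange, lower in blue and not called in grey. The black bar is the median of each list, at -0.41 for the other brown and beige markers, 0.23 for the mitochondrial respiratory genes, -1.70 for the myeloid and -2.96 for the lymphocyte markers.

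Heat can also come from cycles that do not need UCP1. Of 17 such genes in the table, 2 were called higher and 1 lower, with a median log2 ratio of -0.24. CKB, a creatine kinase of the creatine cycle, had 263 counts in the steer pool and 70 in the bull pool (1.79, interval 1.40 to 2.19). PCK1, which makes glycerol 3-phosphate for the cycle of triglyceride breakdown and renewal, had 2337 and 402 (2.42, 2.26 to 2.57). RYR2, a calcium release channel, had 4 and 34 (-3.21, -5.17 to -1.72). LIPE and ATP2A1, the most abundant of the list, were at -0.02 and -0.29.

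The list of mitochondrial respiratory genes holds mostly genes of the respiratory chain, to which COX7A1 belongs, and also CS, VDAC1 and TOMM20. Its 24 nuclear genes gave 0 calls higher and 0 lower. Of the 24, 20 had a log2 ratio above 0, beside 51.1% of all genes with more than 3 counts. Their median was 0.23, beside 0.01 over all genes with more than 3 counts. With scaling by total counts it became -0.01, beside -0.22 over all such genes. ATP5B had the most counts, 6620 in steers and 4445 in bulls, at 0.45, and COX4I1 was at 0.32. Among 14 listed genes of cytochrome c oxidase subunits and their relatives, COX7C and COX6B2 were called higher, with log2 ratios of 1.64 and 3.34. The latter came from 11 and 1 counts and had an interval of 0.55 to 8.76. With scaling by total counts 1 gene of the list was called higher, as with edgeR at an assumed coefficient of variation of 0.2. COX7C is a short gene, and processed copies of such genes can share reads with it. The median of this list was 0.17, and -0.07 with total counts. COX6A2, the muscle partner of COX7A1, had 37 and 51 counts and a ratio of -0.59 (interval -1.24 to 0.05).

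Markers of the cells that IMF can hold differed between the pools beside these genes. All 18 adipocyte markers in the table had counts, and they made up 0.857% of the steer library and 0.759% of the bull library, with 5 called higher, among them DGAT2, LPL and ACACA, and 1, FABP4, lower, and a median log2 ratio of 0.09 that became -0.15 with total counts. All 20 skeletal muscle markers had counts, 0.368% in steers and 0.708% in bulls, with a median log2 ratio of -0.57, 1 called higher and 5 lower. The calls include MYH7 and MYL2 of slow fibres at -2.23 and -2.27, and MYH1 of fast fibres at 1.15. The 13 myeloid markers took 0.270% and 0.884%, with 11, CD68 (-1.79) and CD74 (-1.84) among them, called lower and 0 higher, and 19 lymphocyte markers took 0.00389% and 0.0301%, with 14 lower, 0 higher, and CD79B and MS4A1 at 0 in both pools. The 14 fibroblast and matrix markers took 13.8% and 8.38% and had 6 called higher, 11 endothelial markers had 0 calls and a median of -0.09, and the erythroid markers had 43 and 8 counts in all with 1 called higher. In CIDEA, UCP2 and the muscle-related genes, the part of these cell types in the differences was not tested, and the values below set each gene beside the lists.

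UCP2 was set beside the immune lists, since both were lower in steers. It had 11.8 counts per 1000 counts of the myeloid markers in steers and 20.1 in bulls, a ratio of 0.589 (interval 0.527 to 0.656). Per 1000 counts of the lymphocyte markers it had 822 and 590, a ratio of 1.39 (1.25 to 1.55), so its direction depends on the list. Per 1000 counts of the adipocyte markers the values were 3.73 and 23.4. A few abundant genes weigh most in the myeloid sum, with CD74 alone at 12658 of 34230 counts in steers and 41520 of 87254 in bulls. In the lymphocyte sum CORO1A and PTPRC weigh most, at 178 and 107 of 493 counts in steers and 970 and 780 of 2971 in bulls. The intervals take the list sums as fixed, so they are too narrow beside a list with few counts. With 0.5 added to normalized counts, the 13 myeloid markers had log2 ratios from -4.35 to -0.64 with a median of -1.70, beside -2.24 for UCP2.

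PRDM16 was likewise lower relative to the adipocyte markers, with 0.120 and 0.587 counts per 1000 and a ratio of 0.204 (0.101 to 0.385). Relative to the myeloid markers its ratio was 0.753, with an interval of 0.372 to 1.42 that includes 1, and relative to the lymphocyte markers it was 1.78 (0.880 to 3.37), so that its direction also depends on the list. CIDEA was higher relative to each list it was set beside, from a ratio of 3.46 (2.89 to 4.17) with the fibroblast and matrix markers to 44.2 with the lymphocyte markers. Per 1000 adipocyte marker counts CIDEA had 9.19 in steers and 1.82 in bulls, a ratio of 5.06 (4.23 to 6.10).

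The genes made in muscle were set beside the muscle markers, of which 7 had a log2 ratio above 0, as UCP3 did, and 13 one below 0. ACTA1 alone made up 13852 of the 46600 counts of this sum in steers and 19910 of 69875 in bulls. Markers of slow fibres such as MYH7 (-2.23) and of fast fibres such as MYH1 (1.15) moved apart. Ratios to the muscle sum therefore depend on the markers chosen. UCP3 had 2.27 counts per 1000 muscle marker counts in steers and 0.930 in bulls, a ratio of 2.45 (1.78 to 3.38), whereas relative to the adipocyte markers its ratio was 1.12 (0.818 to 1.56). COX7A1 had 4.51 and 2.85 per 1000 muscle marker counts, a ratio of 1.58 (1.30 to 1.93), and 6.28 and 8.00 per 1000 counts of the mitochondrial respiratory genes, a ratio of 0.784 (0.643 to 0.957). TBX1 had ratios whose intervals include 1 with the muscle (0.461 to 2.35) and the adipocyte markers (0.212 to 1.08). EBF2 had 2.504 and 2.68 counts per 1000 adipocyte marker counts, a ratio of 0.933 (0.775 to 1.13). The adipocyte markers did not move together, so each gene's ratio to their sum depends on the markers chosen. DGAT2 (23283 counts in steers, 8528 in bulls) and ACACA (7423 and 735) were higher in steers. ADIPOQ (4513 and 6651) and FABP4 (3951 and 7574) were lower. In all, 10 adipocyte markers had a log2 ratio above 0 and 8 one below 0.

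**Figure D5:**
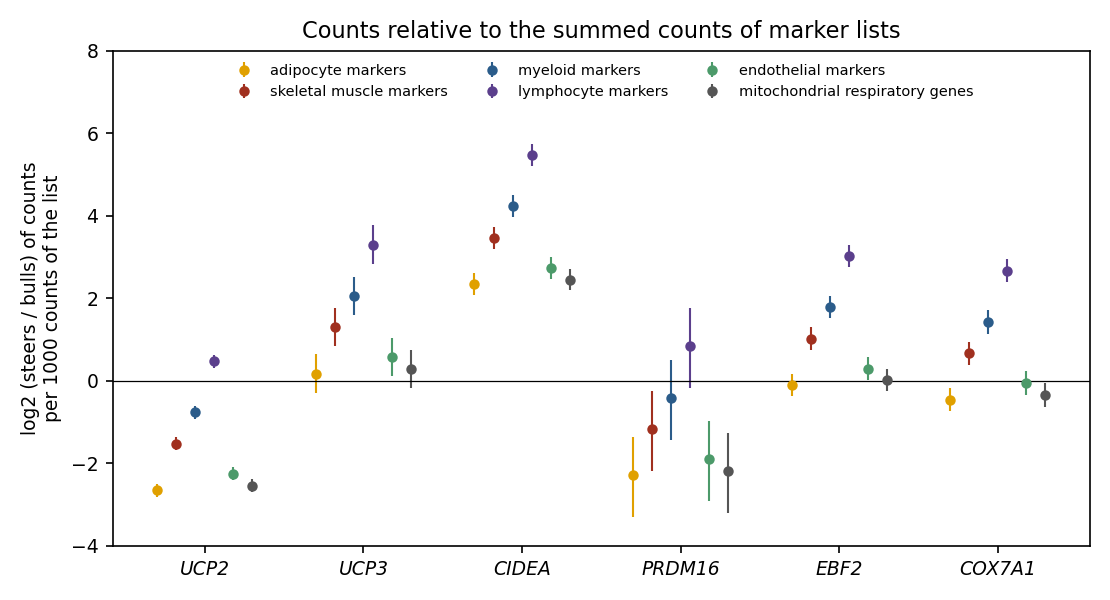
Log2 ratio of steers over bulls of each gene's counts per 1000 summed counts of a marker list, with 95% counting intervals and 1 colour per list. CIDEA lies above 0 with every list drawn, UCP2 below 0 with every list drawn except the lymphocyte markers. Each list shifts every gene by the same amount, so the order of the lists is alike for all genes.

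The genes that flank the 9 members in RefSeq order were read in the same way, up to 2 on each side. Of 32 distinct flanking genes outside the list, 3 were called higher, 1 was called lower and 2 had no count. Over all genes tested, 4.37% were called higher and 8.13% lower. The flanking genes are too few for their shares to be compared with these. CLGN, beside UCP1, had 40 counts in the steer pool and 2 in the bull pool while UCP1 itself had 2 and 0. Beside PRDM16, MEGF6 was called higher with 164 and 70 counts and ACTRT2 with 22 and 0, whereas PRDM16 was called lower.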

How the data were processed

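The authors aligned Ion Proton reads to the bovine genome (Bos 4.6.1) with MapSplice, and the deposited table holds whole-number read counts by gene, not normalized. How reads were counted, and whether strand was used, is not given in the sources used here. The submitters' processing notes name a human genome build, which differs from the bovine build of the published methods, and positions follow the latter. Depth was 12677375 counts in steers and 9868415 in bulls, in 1 pooled library each, so tests compare libraries and not conditions.

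Here counts were scaled by median-of-ratios size factors and compared gene by gene with an exact binomial test (smaller tail doubled) in scipy 1.17.1, adjusted by Benjamini-Hochberg over all genes that had a count. The code was tested on simulated data. The call needed an adjusted p under 0.05 together with a log2 ratio beyond 1 in size. List medians use normalized counts plus 0.5 over genes with more than 3 counts in a library. Intervals cover counting error only. Positions come from the authors' annotation.

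The members and the lists were chosen with earlier results of these data known. Of 300 listed genes, 271 matched by symbol and 8 by an older symbol or gene ID through RefSeq. Named were all members, paralogs with a count, and from each other list up to 4 called genes and the 2 of most counts, with marker lists shortened. Family shares, ratios to marker lists and flanking genes were chosen after the data were seen. Alternatives were other scalings, priors and filters, no fold threshold, and edgeR 4.0.16 with assumed variation. The 4 miRNA libraries were not used.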

Additional observations from a re-analysis of the deposited data

How the results depend on the processing

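No paired analysis was possible because each group has 1 mRNA library, so no replicate could be left out either. A change of scaling moves every gene by the same amount, and the priors, filters and edgeR settings keep the main scaling. An unchanged direction is therefore no separate support. The intervals of COX7A1 (-0.33 to 0.24) and TBX1 (-1.82 to 0.53) include 0, so neither is given a direction. Over the settings run, log2 ratios were 2.51 to 2.75 for CIDEA, -2.48 to -2.22 for UCP2 and -2.12 to -1.54 for PRDM16. These genes stayed called under each scaling, prior and filter run and with edgeR's exact test at an assumed biological coefficient of variation of 0.2. At 0.4, none was called. There the log2 ratios were 2.75 for CIDEA, -2.24 for UCP2 and -1.87 for PRDM16, with adjusted p of 0.144, 0.364 and 0.870 in edgeR, and 0 thermogenic genes were called in either direction. The spread between pools is not known, so which value applies was not tested. Over all genes the calls were 368 higher and 762 lower at 0.2 and 52 and 93 at 0.4. Without a fold threshold 3535 were higher and 3254 lower, and UCP3 (0.58, adjusted p 0.0325 by the exact binomial test, but 0.268 with total counts) joined CIDEA, making 2 thermogenic genes called higher. Among the list medians, 18 moved beyond the counting interval of the gene nearest the median, most of them with total counts, and 78 did not. Among the list counts of calls, 70 moved by over 1.5 times and 186 did not. UCP1, DIO2 and TBX1, with under 20 counts in each library, are limited by depth.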
